A study of Caenorhabditis elegans with 4 samples.

Results

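Close pairs of BLMP-1 peaks are stretches of the Caenorhabditis elegans genome where the peak caller listed exactly 2 neighbouring binding regions, less than 1000 bp apart, with no further region within that distance. The members were chosen by position and width: peaks were sorted by chromosome and start, neighbours with a gap under 1000 bp were joined, and groups of exactly 2 peaks were kept where both were narrower than 1200 bp. This gave 999 pairs, or 1998 of the 10159 peaks listed (19.67%). The peaks that joined no group, 5901 in number (58.09%), are called isolated here and are the set against which the pairs are described. The remaining peaks were 1988 in groups of 3 or more and 272 in 136 pairs that held a peak of at least 1200 bp.

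The study located the genomic regions recovered with tagged BLMP-1 by ChIP-seq (immunoprecipitation of crosslinked chromatin followed by sequencing) in L1 larvae, newly hatched worms that had been fed. There were 2 libraries of BLMP-1 ChIP DNA and 2 libraries of input DNA, the sonicated chromatin before immunoprecipitation. Every library came from hermaphrodites of strain OP109, grown at 20 °C, which carry the mutation unc-119 (ed3) on chromosome III and the transgene wgIs109. This transgene, brought in by bombardment, holds the fusion blmp-1::TY1::EGFP::FLAG next to a working copy, unc-119 (+). The genotype names no change of the endogenous blmp-1 gene, and none of the 4 libraries came from worms without the tag. The labels give the stage as fed L1, while their description of the lysis step speaks of embryos, and the stage label is followed here. Whole animals were lysed, so a peak can come from any tissue in which the fusion protein is made.

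The BLMP-1 protein binds DNA through zinc fingers, carries a PR domain and is the worm relative of vertebrate PRDM1 (Blimp-1). In larvae it is known for its part in the timing of development, in the epidermis and in the migration of the distal tip cells of the gonad, and its level is set by the ubiquitin ligase component DRE-1. Regulatory DNA of C. elegans is compact, and more than 1 element can lie within a short distance of a gene. A pair of peaks can therefore stand for separate elements or for a region that the caller split, and a peak list does not tell these apart.

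The authors' list combined both replicates into 1 set of peaks on WormBase build WS180. For each peak it gave its ends and the q-value of the caller PeakSeq, which compares ChIP with input reads. Values of single libraries were not among those analysed, so no value below has a replicate error and the depth of the libraries is unknown. Lower q, and so higher −log10 q, means stronger evidence, which grows with the number of reads and with the width of a peak. Because positions and widths chose the members, and q comes from the same calls, all values of paired and isolated peaks are given as descriptions with no test. The genes and the DNA sequence under the pairs were not analysed here.

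The caller's q-values also gave tag counts. Each q of the 1998 paired peaks equalled a binomial tail probability of 1 pair of whole ChIP and input tag counts at a relative tolerance of 1e-11, multiplied by 16906 candidate regions and divided by the rank of the peak, taken as 12 above its place in the list. With 16905 or 16907 candidates, 0 of the 1998 matched. These counts are inferred, hold both replicates together and give input as the caller scaled it. Over the paired peaks they ran from 34 to 1517 ChIP tags and from 6 to 949 input tags.

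The pairs were compact. The gap between the peaks of a pair ran from 201 to 999 bp with a median of 570 bp (quartiles 384 and 745). From outer edge to outer edge a pair spanned 411 to 2715 bp, with a median of 1441 bp, and the midpoints of its peaks lay a median of 1021 bp apart. Peaks covered a median of 60.68% of the span, and the gap was longer than both peaks in 507 pairs and shorter than both in 207. The rule sets no lower limit, yet no gap was under 201 bp. Above that no length stood out: the bins of 100 bp held 144 pairs at 200 to 299 bp, 158 at 500 to 599 bp, the fullest, and 98 at 800 to 899 bp, the emptiest. Paired peaks were 1 to 1193 bp wide with a median of 414 bp, against 398 bp for isolated peaks and 386 bp for isolated peaks narrower than 1200 bp. Widths of 50 bp or less were listed for 42 paired and 111 isolated peaks.

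**Figure D1:**
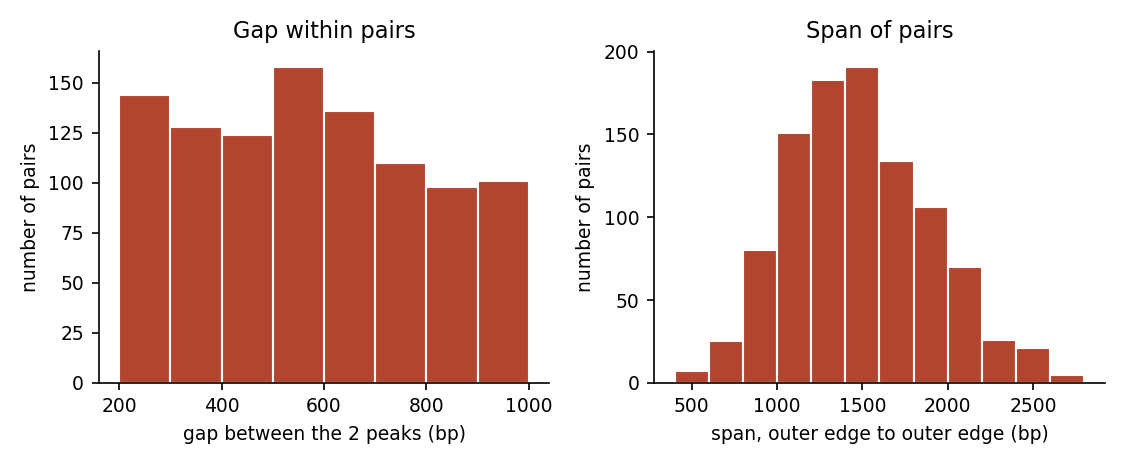
Number of close pairs by the gap between their peaks in bp, in bins of 100 bp (left), and by their span in bp, in bins of 200 bp (right). No gap is under 201 bp, and from there the gaps are spread up to the limit of the rule, with 144 pairs in the first bin and 101 in the last, and the spans centre on a median of 1441 bp.

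Values just inside and just outside the limits of the rule were as follows. Neighbouring peaks 900 to 999 bp apart, 203 cases over the whole list, had a median −log10 q of 12.92, and those 1000 to 1099 bp apart, 211 cases, had 11.49. The widest paired peak lay on X from 7593877 to 7595069, at 1193 bp, with q = 1.29e-49 and 871 ChIP tags against 355 input tags. The narrowest peak that kept a pair out was 1200 bp wide, on II from 13021950 to 13023149, with q = 3.56e-64 and 1163 ChIP tags against 481 input tags.

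The median q of paired peaks was below that of isolated ones, and the difference lay in the wider peaks. The median −log10 q was 10.48 for paired, 8.466 for isolated and 10.05 for all listed peaks. The paired minus isolated difference was 2.01, and 2.35 where isolated peaks were also kept under 1200 bp. The difference was 0.776 where pairs were limited to peaks under 800 bp, with isolated peaks of all widths, and 1.27 where peaks less than 2000 bp apart were joined. A q under 1e-20 was listed for 32.9% of paired peaks (658), 24.3% of isolated peaks (1434) and 30.6% of all peaks. At the weak end the sets were closer, with a q over 0.001 for 11.1% of paired, 12.3% of isolated and 10.9% of all peaks. Peaks in groups of 3 or more went further in the same direction, with a median −log10 q of 16.69 and a q under 1e-20 for 44.6%. Those of them narrower than 1200 bp had a median of 15.09 and a q under 1e-20 for 41.1%. On these measures paired peaks lay nearer to the whole list than isolated peaks did.

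Setting peaks of like width side by side separated narrow from wide ones. From 200 to 399 bp, 728 paired peaks had a median −log10 q of 7.384 and 2347 isolated peaks 6.961. From 400 to 599 bp the medians were 19.25 for 602 paired and 12.52 for 1594 isolated peaks, and from 800 to 1199 bp they were 31.27 for 202 paired and 18.57 for 410 isolated peaks. The paired median was the higher in 8 of 8 bins of 100 bp from 400 bp upward. The quartiles overlapped throughout: from 400 to 1199 bp they were 8.815 and 43.69 for paired peaks and 6.407 and 32.79 for isolated peaks.

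Inferred ChIP tags were higher relative to input in paired peaks, except in the narrowest. These counts come from the same q-values, so they are not separate evidence. The ratio of ChIP to input tags had a median of 2.119 in paired peaks (quartiles 1.692 and 2.862) and 1.957 in isolated peaks (1.607 and 2.58). It exceeded 3 in 435 paired peaks (21.8%), in 933 isolated peaks (15.8%) and in 19.0% of all listed peaks, whose median was 2.042. From 400 to 1199 bp the median ratio was 2.221 in paired and 1.909 in isolated peaks, whereas under 200 bp it was 2.043 in paired and 2.079 in isolated peaks.

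Both terms of the ratio can move it. From 400 to 1199 bp, paired peaks had a median of 781.1 ChIP tags per kb against 755.0 in isolated peaks, and 319.9 input tags per kb against 362.3 in isolated peaks. The ChIP medians of paired peaks were the higher in 6 of 8 bins of 100 bp in that range. Their input medians were the lower in 7 of 8 of these bins, and the exception was the bin from 900 to 999 bp, with 381.9 in paired and 367.0 in isolated peaks. The lower input moved with the higher ratio, of which it is the denominator, and its part in the difference was not tested. Tags per kb are not informative for the narrowest peaks: under 100 bp the medians were 652.2 input tags per kb in paired and 534.8 in isolated peaks, above those of any wider bin.

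**Figure D2:**
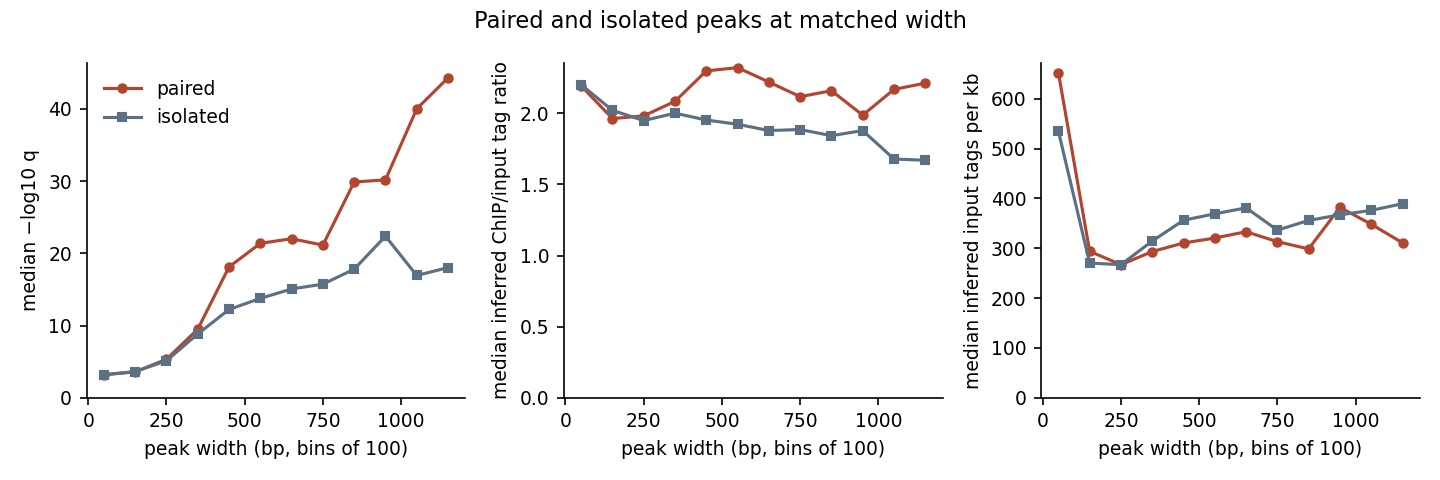
Median −log10 q (left), median inferred ratio of ChIP to input tags (middle) and median inferred input tags per kb (right) against peak width in bins of 100 bp, for paired peaks (red circles) and isolated peaks (grey squares). In the left and middle panels the lines lie close below 400 bp, and above it the paired medians are the higher in 8 of 8 bins. The input medians are furthest apart under 100 bp, 652.2 in paired and 534.8 in isolated peaks, and from 400 bp upward the paired ones are the lower in 7 of 8 bins.

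The peaks of a pair mostly differed in q. The stronger peak had a median −log10 q of 23.09 and the weaker 5.398, which are q-values of 8.11e-24 and 4.00e-06. The difference within a pair had a median of 13.46, exceeded 10 in 562 pairs (56.3%) and was under 1 in 76 (7.61%). Any 2 peaks split into a stronger and a weaker one differ: between consecutive isolated peaks under 1200 bp the median difference was 8.18. Both peaks had a q under 1e-20 in 105 pairs, 1 of them in 448 and neither in 446. In 69 pairs 1 peak had a q under 1e-20 and its partner a q over 0.001, and in 16 pairs both were over 0.001.

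The q of 1 peak said little about that of its neighbour. Spearman's rho of −log10 q between left and right peaks was 0.030 over the 999 pairs, which share libraries, depth and local background. It was 0.034 over 4244 isolated peaks under 1200 bp and the next isolated peak along the chromosome, a median of 6814 bp away. Both peaks of a pair lay on the same side of the median q of the list, 8.92e-11, in 51.3% of pairs, and consecutive isolated peaks did in 52.5%. Inferred input was the measure that partners shared most, with a rho of 0.24 for tags per kb, and 0.26 in the 796 pairs where both peaks were at least 200 bp wide. The rho was 0.12 for the ratio of ChIP to input tags and 0.12 for width.

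The peak of a pair that was stronger by q was usually the wider and had the higher inferred ratio. Tag counts were inferred from that same q, and evidence grows with width, so these measures are not independent of the definition of stronger. How much of the differences it accounts for was not tested. The stronger peak was wider in 728 pairs (72.9%), with a median of 485 bp against 344 bp for the weaker peak. It had the higher inferred ratio in 813 pairs (81.4%), with medians of 2.577 in stronger and 1.836 in weaker peaks. Its ChIP tags had a median of 388 against 198 in weaker peaks, and its input per kb was the lower of both in 613 pairs. The distance between the peaks did not go with their strength: Spearman's rho of the gap was 0.020 with the difference in −log10 q and 0.043 with the −log10 q of the weaker peak. The median ratio was 1.99 in the bin of smallest gaps and 2.09 in that of the largest.

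**Figure D3:**
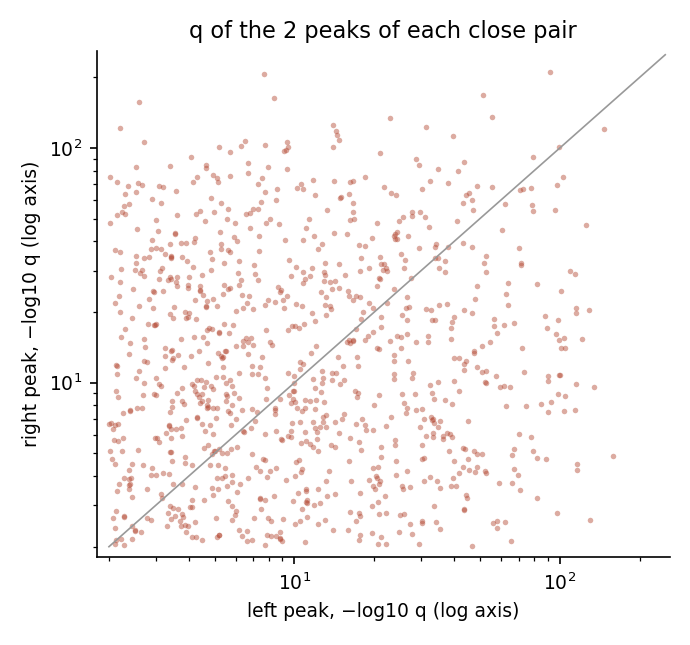
−log10 q of the right peak against that of the left peak for the 999 close pairs, both on log axes, with the line of equal values. The points fill the square without a trend (Spearman's rho 0.030), and pairs with 1 strong and 1 weak peak lie in the upper left and lower right corners.

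The strongest pairs are those whose weaker peak still had a low q, and the first 3 on each chromosome are described. The lowest weaker q of all pairs was on III, where the left peak ran from 13215485 to 13215995 (q = 6.60e-148) and the right peak from 13216475 to 13216939 (q = 2.94e-121). Their tags were 888 ChIP against 113 input in the left peak and 694 against 80 in the right. These were ratios of 7.858 and 8.675, in peaks of 511 and 465 bp. Another pair on III, with a left peak at 9644867 to 9645497 (q = 1.84e-92) and a right peak at 9646077 to 9646966 (q = 4.85e-212), held the lowest q of any paired peak, with 1517 ChIP tags against 262 input tags. The last on III spanned 12848976 to 12851402 (q = 4.64e-98 and 2.28e-70).

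On I, the pair that spanned 5209886 to 5211448 had nearly equal q-values, 4.62e-100 and 1.43e-101. They had 698 ChIP and 117 input tags in the left peak and 657 ChIP and 97 input tags in the right. The other pairs on I lay from 11839385 to 11841328, with q-values of 2.29e-80 and 8.16e-93, and from 7889085 to 7891065, with 6.55e-79 and 5.02e-68. Chromosome X held a pair that spanned 1309323 to 1311763 (q = 1.57e-103 and 1.03e-75), near the left end of its peaks. Its left peak had 835 ChIP tags against 172 input tags and its right peak 1158 against 431, so the peak with more ChIP tags was the weaker by q. The other pairs on X spanned 10770666 to 10773102 (q = 1.24e-79 and 1.11e-57) and 7593877 to 7596385 (q = 1.29e-49 and 1.40e-69).

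On V the first pair spanned 9690683 to 9692792, with q-values of 2.61e-56 and 7.25e-69. It was followed by 20657717 to 20659658, out on the right arm, with 7.54e-97 and 3.86e-55, and by 11986065 to 11988338, with 3.49e-80 and 1.00e-54. On IV the pairs spanned 9257297 to 9259173 (q = 2.56e-44 and 1.13e-87), 1857632 to 1859930 (q = 1.35e-38 and 6.64e-72) and 5081598 to 5083423 (q = 1.93e-35 and 3.58e-82). Chromosome II had most pairs, but its 3 strongest had higher q in their weaker peaks than those of any other chromosome, compared rank for rank. They spanned 6847474 to 6849799 (q = 4.64e-71 and 4.09e-38), 7933765 to 7935118 (q = 6.57e-35 and 1.40e-39) and 4761019 to 4763323 (q = 1.13e-34 and 1.34e-34). Over these 18 pairs, gaps ran from 300 to 960 bp, widths from 414 to 1193 bp with a median of 700.5 bp, and ratios from 1.876 to 8.675. The right peak was the stronger in 9 of the 18, and 12 were central, meaning between 0.25 and 0.75 of the distance from the first to the last peak of the chromosome.

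Of the pairs with the highest ratio in their less enriched peak, the first was the leading pair on III and the second the leading pair on I. The other 4 followed. On I from 14966046 to 14967309, the left peak had 415 ChIP against 77 input tags and the right peak 685 against 57, a ratio of 12.018, the highest of any paired peak. On I from 1102122 to 1103604, the counts were 404 against 45 in the left peak and 261 against 54 in the right. On I from 10628291 to 10629740, they were 335 against 70 and 382 against 75. On IV from 11174794 to 11176230, they were 185 against 32 and 278 against 60, in peaks of 299 and 397 bp. Ratios over 3 in both peaks occurred in 54 pairs, and in a single peak of the pair in 327.

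The most uneven pairs joined some of the strongest peaks of the list to weak neighbours. On V, a peak of 837 bp from 6105047 to 6105883 (q = 8.25e-208) had 1471 ChIP tags against 250 input tags. Its partner, 217 bp to the left from 6104548 to 6104829, had q = 2.15e-08, with 188 ChIP tags against 93 input tags. On III, the peak from 1147682 to 1148348 (q = 1.82e-157) had 1042 ChIP and 159 input tags, and its partner from 1146748 to 1147025 had 121 and 78 (q = 2.52e-03). Also on III, the peak from 13695410 to 13695897 (q = 3.05e-131) stood beside one of 126 bp with q = 2.55e-03. The remaining 3 spanned 3680077 to 3681954 and 11814165 to 11815845 on III and 10350826 to 10352070 on I, with differences in −log10 q of 155.74, 153.36 and 125.17. The stronger peak was the left one in 3 of these 6 pairs, and 4 of the 6 were on III.

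**Figure D4:**
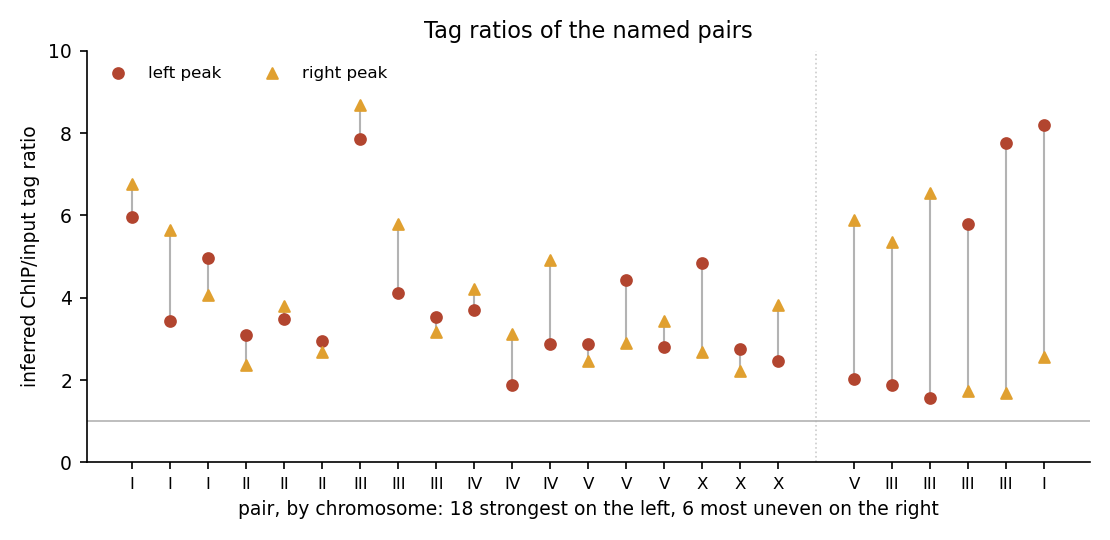
Inferred ratio of ChIP to input tags in the left peak (red circles) and right peak (yellow triangles) of the 3 strongest pairs of each chromosome and, right of the dotted line, of the 6 most uneven pairs. Grey lines join the peaks of a pair, labels on the axis give its chromosome and the horizontal line marks equal tags. The leading pair on III is high in both peaks (7.858 and 8.675), whereas each uneven pair has 1 peak above 5 and 1 below 3.

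Gap length marked neither kind. The smallest gap, 201 bp, occurred on II from 12239311 to 12241042, with q-values of 1.26e-104 and 2.47e-08, and on II from 9974174 to 9975667, with 5.09e-08 and 1.21e-11. A gap of 202 bp followed on IV from 5947717 to 5949097 (q = 1.77e-12 and 5.79e-74). The largest were 999 bp on IV from 7454834 to 7456551 (q = 1.90e-44 and 1.34e-03), 997 bp on V from 13591522 to 13593389 (q = 2.17e-07 and 1.16e-15) and 993 bp on II from 7356768 to 7358905 (q = 4.92e-07 and 1.84e-102). The difference in −log10 q ran from 3.62 to 96.29 over the pairs named with small gaps. Over those with large gaps it ran from 8.27 to 95.43.

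Pairs occurred on every chromosome. Chromosome II had 185 (12.1 per Mb of span), III 154 (11.2), I 166 (11.1), X 183 (10.5), IV 160 (9.18) and V 151 (7.23). The share of a chromosome's peaks that were in pairs varied less, from 18.4% on V to 21.9% on II, where the isolated share was also the lowest, 52.9%. The median gap ran from 536 bp on V to 598 bp on X. The paired median of −log10 q lay above the isolated one on 6 of 6 chromosomes, from 12.24 against 8.811 for isolated peaks on III to 8.997 against 7.567 for isolated peaks on V. The ratio of ChIP to input tags behaved likewise, from 2.26 against 2.01 for isolated peaks on I to 2.01 against 1.9 for isolated peaks on X, and V had the smallest difference, 2.02 against 1.97 for isolated peaks. Paired peaks on X were the widest, with a median of 457.5 bp, and isolated peaks on X had 443 bp, against 406 bp for paired and 387 bp for isolated peaks on the autosomes.

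Pairs lay in chromosome centres more often than isolated peaks did. The central part held 659 of 999 pairs (66.0%) and 3447 of 5901 isolated peaks (58.4%), and it held 74.9% of the peaks in groups of 3 or more. Of all listed peaks 63.3% were central, so the pairs lay near the whole list. The pair share was the higher on 6 of 6 chromosomes, most on V, with 75.5% of pairs against 63.5% of isolated peaks, and least on II, with 64.3% against 62.8%. On V this was 10.9 pairs per Mb in the centre and 3.54 on the arms, and on X 13.0 and 8.04. A gap under 1000 bp is reached more often where peaks are dense. The higher central share of pairs than of isolated peaks therefore cannot be told apart from the density of peaks. Central pairs had a median gap of 555 bp and arm pairs 606 bp. The paired median of −log10 q was 11.11 in the centre and 8.734 on the arms, and the ratio of ChIP to input tags was nearly the same, 2.12 and 2.11. Isolated peaks also had the higher −log10 q in the centre, 9.27 against 7.244 on the arms, with ratios of 2.0 and 1.89.

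**Figure D5:**
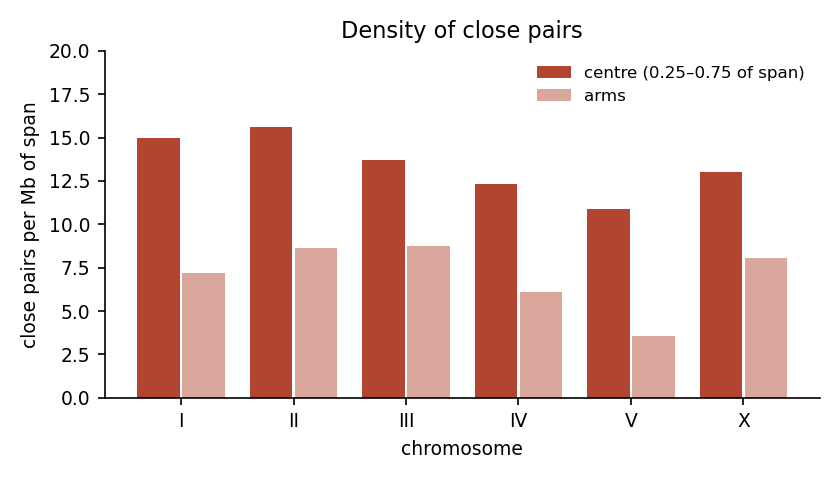
Close pairs per Mb in the central part (dark red) and on the arms (pale red) of each chromosome, with the span between the outermost peaks as its length. The centre is denser on all 6 chromosomes, for example with 13.0 against 8.04 on the arms of X and 10.9 against 3.54 on the arms of V.

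The number of pairs, like that of peaks, varied on a finer scale. In 96 whole windows of 1 Mb, laid from the first peak of each chromosome, the median was 10.5 pairs, with 1 to 25. The most lay on I from 9016826 to 10016825, where 50 of 186 peaks were paired (26.9%, against 19.67% of all listed peaks). On V from 13007780 to 14007779, 20 pairs took 35.1% of 114 peaks. Single pairs were found on IV from 16049806 to 17049805 and on V from 17007780 to 18007779, windows of 34 and 18 peaks. Around a pair, the nearest other peak was a median of 2653 bp away. It lay under 2 kb away for 376 pairs (37.6%) and over 10 kb away for 119 (11.9%).

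Pairs were last set beside single broad peaks, since 736 of them spanned at least 1200 bp. These 736 pairs had a median span of 1596 bp, of which the peaks made up 970.5 bp. The 226 isolated peaks between 1200 and 2715 bp wide had a median width of 1479 bp. Summed over its peaks, such a pair had a median of 732.5 ChIP and 306 input tags, against 1112 ChIP and 598.5 input tags for a broad peak. The summed ratio was 2.24 in pairs (quartiles 1.82 and 2.87) and 1.76 in broad peaks (1.41 and 2.2), and input per kb was 316 in pairs and 381.8 in broad peaks. Tags in the gap of a pair were not counted, whereas a broad peak was counted over its whole width. These values are therefore not like for like, and what the gap would add was not tested. In the 136 pairs left out for a peak of at least 1200 bp, the peaks below that width had a median ratio of 1.707 and a median −log10 q of 7.449, against 2.119 and 10.48 in the close pairs. Among the 25 peaks of lowest q, 2 were in close pairs, 9 in pairs with a wide peak, 11 in groups of 3 or more and 3 were isolated. Of all listed peaks these parts held 19.67%, 2.677%, 19.57% and 58.09%. Close pairs exclude peaks of at least 1200 bp and the other parts do not, so the rule itself limits their count.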

How the data were processed

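ChIP and input libraries of L1 larvae, 2 of each, were represented by 1 list of 10159 peaks. The authors deposited for each peak a q-value as its score, from PeakSeq calls on WS180, per the file headers. The aligner, read filters, depths and handling of replicates were not given in the sources used here. A gene table of another build was not used.

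Peaks were grouped as described above, and the q-values were resolved into whole tag counts, with the number of candidates found by scanning, found for 10157 of 10159 peaks. Grouping and the resolving of q were tested on simulated data. There the number of candidates was given, so the scan for it was not tested. Members and lists were chosen with earlier results of these data known. Pairs named are the 3 per chromosome whose weaker peak has the lowest q, the 6 most uneven in −log10 q, the 6 with the highest ratio in the less enriched peak, and the 3 smallest and 3 largest gaps. No tests were run. Alternatives changed the gap limit, the width limit, the peaks entered and the definition of the centre. Scripts ran in Python 3.11.15 with matplotlib 3.10.9, pandas 2.3.3, scipy 1.17.1 and numpy 2.4.6.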

Additional observations from a re-analysis of the deposited data

How the results depend on the processing

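Of 62 recomputed values, 37 stayed close to the reported value. This meant within 1.5 times the main number of pairs or, for the others, within the 95% binomial interval of the reported value. Order statistics were used for medians and a normal approximation for the rank correlation. The interval of the difference from isolated peaks used the spread of the paired median only. A turn of sign was looked for in that difference alone, and 0 occurred. These intervals treat peaks as independent and are too narrow. Joining only gaps under 500 bp gave 631 pairs, 12.4% of peaks, a median gap of 348 bp, a median width of 435 bp, a median −log10 q of 11.7, a median ratio of 2.17 and a central share of 72.1%. Joining gaps under 2000 bp gave 20.6% of peaks, a median gap of 845 bp, a −log10 q of 9.23, a difference from isolated peaks of 1.27, a ratio of 2.06 and a central share of 61.1%. Without a width limit pairs took 22.3% of peaks, at a median of 442 bp. With a limit of 800 bp they took 16.0%, at 385 bp, with a −log10 q of 9.24 and a difference of 0.776. With peaks of q at most 0.001 they took 18.8%, at 433 bp, with a −log10 q of 13.0, a difference of 2.68 and a ratio of 2.24. A narrower centre, 33.3% of the span, held 47.8% of pairs. Gap, width and q moved by construction where the limits select on them, and the cause of the other moves was not tested. The rank correlation between partners stayed between 0.00038 and 0.07. No paired analysis was possible because both replicates are merged in each value, and none could be dropped in turn. As the depth is unknown, weak partners that fell short of the list cannot be counted.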

Other observations

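Left and right peaks of a pair can be set side by side in the direction of the chromosome's coordinates. The right peak was the stronger by q in 531 pairs and the left in 468, and the right had the higher inferred ratio of ChIP to input tags in 545 and the left in 454. The share of pairs with the stronger peak on the right was 63.6% on V, 57.3% on II, 52.4% on I, 50.6% on IV, 48.7% on III and 47.0% on X. Among consecutive isolated peaks it was 50.6%, and in the pairs with a peak of at least 1200 bp it was the right one in 62 of 136. The rule does not use the direction, and this count was made after the values were seen, with no test.

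In the pairs with a peak of at least 1200 bp, the wider peak was the stronger in 106 of 136, and Spearman's rho of −log10 q between their peaks was −0.19, against 0.030 in the close pairs. Such pairs were chosen for holding a wide peak, and evidence grows with width, so the choice bears on both values. Of the 191 peaks narrower than 1200 bp with a q under 1e-100, 47 (24.6%) were in close pairs, 75 (39.3%) were isolated and 67 (35.1%) were in groups of 3 or more. Of all 9572 peaks below that width, 20.9% were in close pairs, 59.0% were isolated and 18.8% were in groups of 3 or more.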
